A study of Mus musculus with 110 samples.

Results

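The 10 genes described here are effectors of the integrated stress response: Atf4, Atf5, Ddit3, Trib3, Asns, Chac1, Sesn2, Eif4ebp1, Ppp1r15a and Nupr1. They were chosen by name, and their rows were found by matching Ensembl identifiers to gene symbols in 3 deposited tables of raw counts, which list 56884 genes. All 10 were measured and passed the filter on low counts in all 4 tissues, which were liver, brown fat (iBAT), inguinal white fat (iWAT) and epididymal white fat (eWAT). The tissues came from 28 single-housed male C57BL/6N mice, which were 16 weeks old at the end. Mice received a control diet (Ctrl, 0.86% methionine in the labels) or a methionine-restricted diet (MetR, 0.12% methionine), and both diets were depleted of cysteine. After 7 days of diet at 22 °C, the mice of Ctrl_RT and MetR_RT were analysed, while those of Ctrl_CE and MetR_CE spent an additional day, 24 h, at 4 °C. Cold exposure thus came with 1 more day of the diet, and the effects of the 2 cannot be told apart here. No gene was altered in any group, so that Ctrl_RT is the untreated reference.

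The integrated stress response begins with kinases that phosphorylate the translation initiation factor eIF2, among them GCN2, which senses uncharged tRNAs when an amino acid runs short. Most translation then falls, while mRNAs with upstream open reading frames, Atf4 in particular, are translated more, and the ATF4 protein binds composite C/EBP-ATF elements to drive genes of amino acid supply and of feedback. Since this first step is translational, Atf4 mRNA and ATF4 protein need not move together, and the data are of mRNA alone. Dietary restriction of methionine or other essential amino acids is a well known trigger of the pathway in liver.

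ATF4 binds as a partner of C/EBP factors to sites with the core TGATGNAA, and this core was searched on both strands (TTNCATCA on the other strand) in the 250 bases before the annotated gene start, from RefSeq on GRCm38.p6, the assembly also called mm10. Of 32851 promoters, 1134 (3.45%) held it. Promoters were listed for 9 of the 10 genes, and 3 of these genes, Asns, Chac1 and Nupr1, had a core. The promoters of these 3 genes, which held the core, are printed here. They lie on chr6:7693210-7693459 (minus strand) for Asns, chr2:119350992-119351241 (plus strand) for Chac1 and chr7:126625471-126625720 (minus strand) for Nupr1. They are written 5′ to 3′ along the gene, with the core in capitals.
Asns: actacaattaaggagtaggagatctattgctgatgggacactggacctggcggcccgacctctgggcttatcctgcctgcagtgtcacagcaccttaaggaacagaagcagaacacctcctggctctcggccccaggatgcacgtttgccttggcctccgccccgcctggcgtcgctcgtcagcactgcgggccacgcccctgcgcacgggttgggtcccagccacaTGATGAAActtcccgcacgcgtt
Chac1: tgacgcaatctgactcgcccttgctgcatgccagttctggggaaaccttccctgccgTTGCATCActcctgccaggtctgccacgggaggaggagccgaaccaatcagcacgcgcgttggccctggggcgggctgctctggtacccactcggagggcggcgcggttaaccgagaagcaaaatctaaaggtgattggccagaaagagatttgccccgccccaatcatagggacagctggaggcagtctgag
Nupr1: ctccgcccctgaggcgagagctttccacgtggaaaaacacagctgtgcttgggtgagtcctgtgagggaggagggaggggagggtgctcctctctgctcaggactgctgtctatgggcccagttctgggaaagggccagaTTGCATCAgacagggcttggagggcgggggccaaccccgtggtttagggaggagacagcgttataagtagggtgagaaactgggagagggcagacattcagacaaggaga
The first base of the core lay 23 bases upstream of the gene start in Asns, 193 in Chac1 and 110 in Nupr1, and the core read TGATGNAA on the gene's strand in Asns and on the opposite strand in the others. Among the genes of 7 other lists that had a promoter, the core was held by 6 of 25 other amino acid response targets of ATF4, 3 of 12 cytosolic tRNA synthetases and 2 of 9 bZIP factors. It was held by 1 of 11 genes of the eIF2 machinery, 1 of 18 ER chaperones, 0 of 8 mitochondrial chaperones and proteases and 0 of 17 mTORC1 regulators. Such a match describes letters in a window and does not show binding.

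Whole counts of reads per gene were analysed in 105 of 110 libraries. The 5 others were 1 of iBAT Ctrl_CE, 3 of eWAT Ctrl_RT and 1 of eWAT MetR_RT. They were left out because the study omitted them. Groups held 7 libraries each in liver, 6 or 7 in iBAT and iWAT, and 4 (Ctrl_RT), 6 (MetR_RT) or 7 in eWAT. Total counts spanned 6987895 to 33444374 (liver), 12672686 to 31232349 (iBAT), 16607493 to 33141066 (iWAT) and 22021114 to 33372110 (eWAT). The markers of each tissue were found where the labels put them. Summed albumin and 4 further hepatocyte transcripts reached 46679 CPM or more in every liver library, and 5 adipocyte markers summed to 8467 CPM or more in every library of the fat depots. Some libraries stood apart: skeletal muscle markers summed to 20655 CPM in iWAT MetR_RT replicate 6, epididymal epithelium markers to 1284 CPM in eWAT MetR_RT replicate 2, and hepatocyte markers to 50.1 CPM in iBAT Ctrl_RT replicate 5. In iBAT, 3 libraries carried a treatment tag that differed from their title and were placed by title. Ddit3 had a second entry in the tables, at 0 counts in every library, and its values come from the first. Levels are given as CPM, which are counts scaled to the library total with TMM factors, as the lowest to the highest library with the median. A gene was called changed at an adjusted p under 0.05 (edgeR's quasi-likelihood test, Benjamini-Hochberg over all genes of the tissue) and a fold change of at least 1.5. Fold changes are log2 values with their standard error (SE).

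In untreated mice, the 10 genes differed in where they were high. For this comparison alone, CPM were scaled over the libraries of all tissues together, and they describe a gene between tissues, not genes against each other. Atf5, a bZIP factor related to Atf4, ran from 729 to 1530 CPM (median 1108) in liver, 300.5 to 544 CPM (median 390.0) in iBAT, 122 to 247.3 CPM (median 162) in iWAT and 88.1 to 131 CPM (median 116) in eWAT. Liver lay above iBAT and iBAT above iWAT without overlap, while iWAT and eWAT overlapped. Nupr1, which encodes a small stress-induced regulator of transcription, had the opposite order. It ran from 36.4 to 59.4 CPM (median 50.5) in eWAT, 43.1 to 58.8 CPM (median 50.3) in iWAT, 12.03 to 17.8 CPM (median 14.2) in iBAT and 1.98 to 4.56 CPM (median 3.16) in liver, and the 2 white depots overlapped while iBAT and liver each lay apart. Eif4ebp1, which encodes a repressor of cap-dependent translation that mTORC1 inactivates, ran from 200.5 to 286.98 CPM (median 255.2) in eWAT, 170.0 to 200.4 CPM (median 185) in iBAT and 146 to 189 CPM (median 170.3) in iWAT against 69.4 to 88.7 CPM (median 75.03) in liver. The lowest eWAT library only just cleared the highest of iBAT, iBAT and iWAT overlapped, and liver lay below all of them.

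For the other 7 genes, neighbouring tissues overlapped throughout under this scaling. Atf4 medians ran from 71.7 CPM in eWAT, 89.1 in iBAT and 92.6 in iWAT to 136 in liver. Trib3 and Chac1 were also highest in liver by median, at 15.8 and 8.98 CPM, but with wide ranges of 4.92 to 30.6 CPM (median 15.8) and 2.82 to 13.8 CPM (median 8.98). Asns and Sesn2 were lowest in liver, at medians of 37.2 and 15.04 CPM, and highest in eWAT, at 53.6 and 31.7 CPM. Ddit3 medians ran from 10.1 CPM in liver to 15.99 in iBAT, and those of Ppp1r15a from 10.496 in liver to 12.97 in iBAT. Without TMM factors, the orders of Atf4, Ddit3, Asns, Chac1, Sesn2, Eif4ebp1 and Ppp1r15a changed, and 7 rather than 6 neighbouring pairs lay apart. Only the orders of medians of Atf5, Trib3 and Nupr1 held under both scalings. Even so, Atf5 in iBAT and iWAT then overlapped (lowest iBAT library 275.9 CPM, highest iWAT library 287.1 CPM). The Nupr1 medians of eWAT and iWAT were nearly equal, at 63.65 and 63.61 CPM, so that their order carries little weight.

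**Figure D1:**
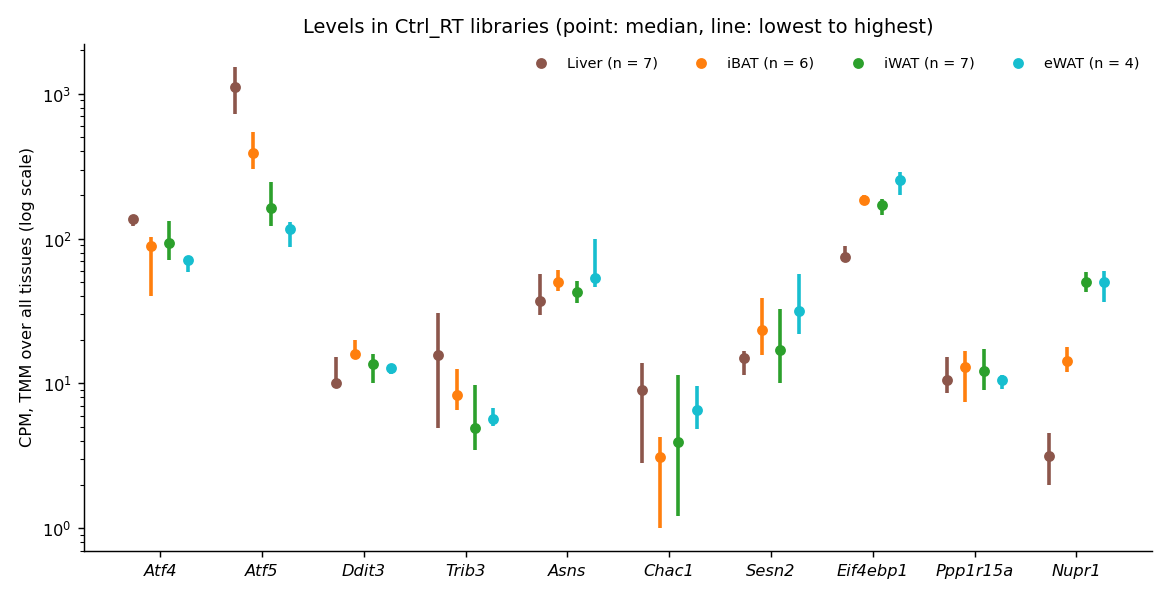
Levels of the 10 genes in untreated (Ctrl_RT) mice, in CPM scaled over all tissues, on a log axis; points are medians and lines run from the lowest to the highest library, for liver (n = 7), iBAT (n = 6), iWAT (n = 7) and eWAT (n = 4). Atf5 steps down from liver (median 1108) to eWAT (116), whereas Nupr1 steps up from liver (3.16) to eWAT (50.5).

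In the liver, methionine restriction at room temperature raised most of the group. MetR_RT had 7 of the 10 genes higher than Ctrl_RT and 0 lower, where 6.91% of the 22143 genes tested were called in either direction. DESeq2 called 6, without Ppp1r15a, and with apeglm shrinkage 5, without Ppp1r15a and Sesn2. The share of all genes that DESeq2 called, with or without shrinkage, is not given here or below. Its counts thus stand without a background, and the shares printed are those of edgeR. All 10 genes had a positive log2 fold change, with a median of 0.71 against 0.00 for all genes. In whole tissue, a change in the share of a cell type and a change in RNA per cell cannot be told apart, and this holds for each result that follows. Whether the ranges of 2 groups overlapped was determined for the chosen genes only. The share of all genes whose groups lay apart was not computed, here or below, so that such counts stand without a background.

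Among the target genes of ATF4, Asns, which encodes asparagine synthetase, ran from 23.2 to 44.2 CPM (median 30.6) in Ctrl_RT and from 82.5 to 180.3 CPM (median 134) in MetR_RT. Every MetR_RT library lay above every Ctrl_RT library, with a log2 fold change of 2.00 ± 0.20 (adjusted p = 1.88e-08), or 3.99-fold. Nupr1 ran from 1.58 to 3.70 CPM (median 2.45) in Ctrl_RT and from 9.53 to 14.8 CPM (median 10.2) in MetR_RT, again without overlap, with a change of 2.08 ± 0.19 (adjusted p = 2.10e-09), or 4.23-fold. It was thus scarce in untreated liver and had the largest fold change of the 10. Trib3, a pseudokinase that is induced by ATF4 and CHOP and feeds back on ATF4, ran from 3.93 to 24.7 CPM (median 12.8) in Ctrl_RT and from 31.4 to 54.8 CPM (median 42.9) in MetR_RT. The groups lay apart although Ctrl_RT itself spread widely, and the change was 1.51 ± 0.26 (adjusted p = 7.70e-05), or 2.85-fold.

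Of the transcription factors, Atf5 rose by 0.73 ± 0.13 (adjusted p = 0.000166). Its range was 582 to 1236 CPM (median 860.1) in Ctrl_RT and 1163 to 2104 CPM (median 1399) in MetR_RT, and the highest control library reached into the treated range. Atf4 itself ran from 95.0 to 115 CPM (median 105) in Ctrl_RT and from 128 to 178 CPM (median 152) in MetR_RT. These ranges did not overlap, but its change of 0.54 ± 0.10 (adjusted p = 0.000299), or 1.46-fold, stayed under the fold limit and Atf4 was not called. Ddit3, which encodes the pro-apoptotic factor CHOP, was at 7.78 to 12.3 CPM (median 8.18) and 7.89 to 15.5 CPM (median 10.4), with a difference of 0.18 ± 0.15 (adjusted p = 0.48) that did not pass the test.

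Of the regulators of translation and of feedback, 3 rose. Eif4ebp1 ran from 55.6 to 72.8 CPM (median 60.9) in Ctrl_RT and from 90.3 to 107 CPM (median 95.3) in MetR_RT, without overlap and with a narrow spread, and rose by 0.64 ± 0.08 (adjusted p = 1.34e-06). Sesn2, a stress-induced sestrin that binds leucine and restrains mTORC1, ran from 9.09 to 13.1 CPM (median 12.2) against 11.2 to 31.3 CPM (median 16.2) and rose by 0.69 ± 0.18 (adjusted p = 0.00692). The groups overlapped, and without MetR_RT replicate 6 the change was 0.50 (adjusted p = 0.034) and no longer called. Ppp1r15a, which encodes GADD34, the subunit that directs a phosphatase to eIF2 and so ends the response, rose by 0.59 ± 0.14 (adjusted p = 0.00225), just past the fold limit. It ran from 6.997 to 12.2 CPM (median 8.62) in Ctrl_RT and from 10.8 to 17.6 CPM (median 13.9) in MetR_RT, and the ranges overlapped. Chac1, whose product degrades glutathione, had the largest SE of the 10. It ran from 2.20 to 11.1 CPM (median 7.37) in Ctrl_RT and from 3.42 to 35.7 CPM (median 11.1) in MetR_RT, with a difference of 1.13 ± 0.52 (adjusted p = 0.136) that did not pass the test.

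**Figure D2:**
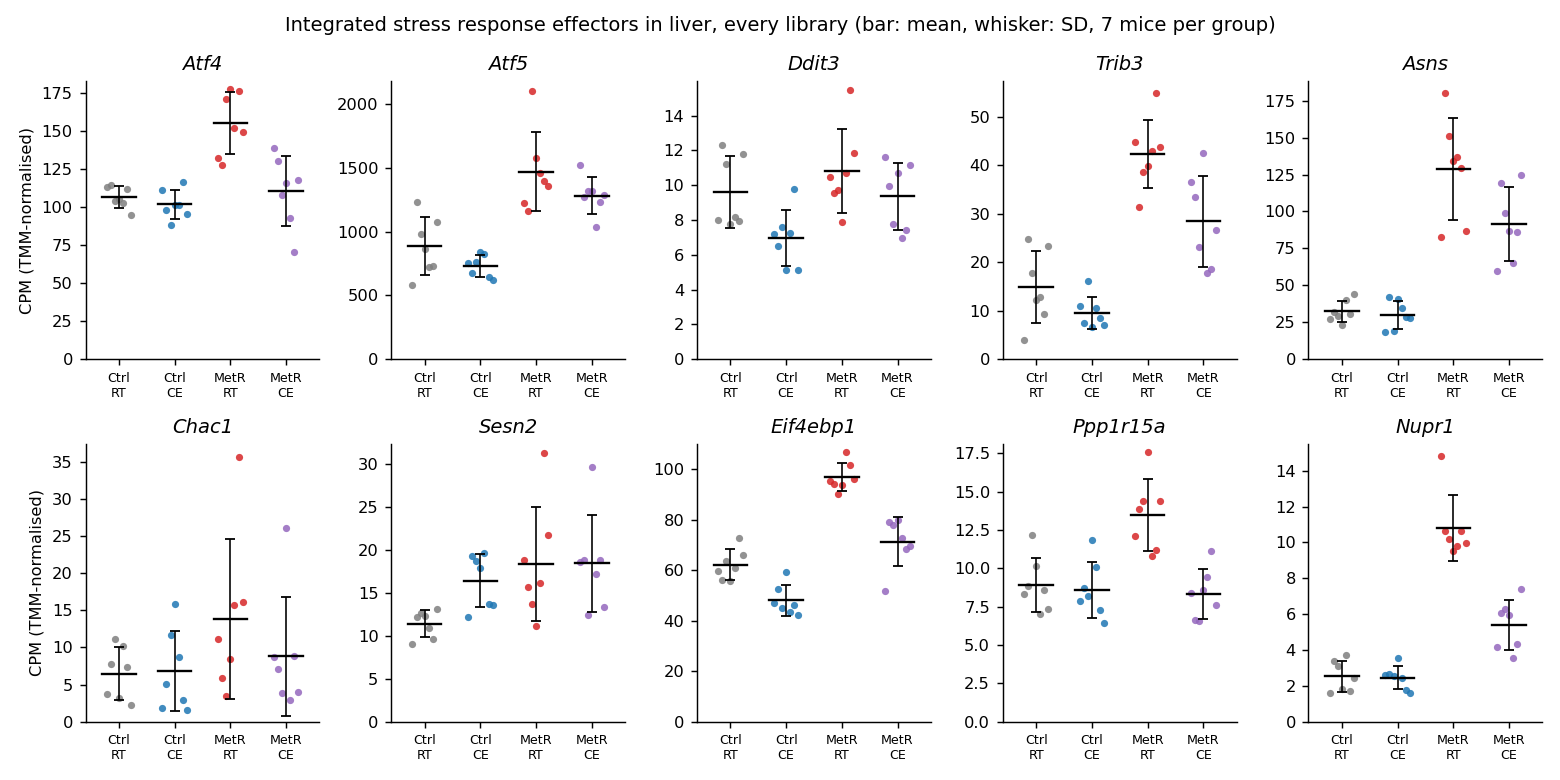
Levels of the 10 genes in liver, in CPM per library (points), with the mean and SD, for the 4 groups of 7 mice each. Asns runs from 82.5 to 180.3 CPM in MetR_RT and up to 44.2 in Ctrl_RT, while Ddit3 overlaps across the groups.

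On the control diet, 24 h of cold called 0 of the 10 genes in liver, where 11.9% of all genes were called. At an unadjusted p under 0.05 there were 5, by the adjusted p alone 3, and DESeq2 called 0. By the adjusted p alone, 6388 of all 22143 genes passed. The share of all genes at an unadjusted p under 0.05 was not computed, here or below. The 3 with an adjusted p under 0.05 had changes under the fold limit. Eif4ebp1 was at 42.1 to 59.4 CPM (median 46.2) (log2 fold change -0.37 ± 0.08, adjusted p = 0.000867), Ddit3 at 5.10 to 9.78 CPM (median 7.20) (-0.46 ± 0.16, adjusted p = 0.0275) and Sesn2 at 12.2 to 19.6 CPM (median 17.9) (0.52 ± 0.18, adjusted p = 0.0329). All 10 overlapped between Ctrl_CE and Ctrl_RT. Asns, at 18.5 to 42.02 CPM (median 28.3), and Nupr1, at 1.60 to 3.54 CPM (median 2.57), had estimates near 0, with -0.11 ± 0.20 and -0.06 ± 0.20.

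With both stimuli, 4 genes were called against Ctrl_RT and all 4 were higher, where 13.5% of all genes were called. Asns, at 59.8 to 125 CPM (median 86.8), was the only one of the 10 whose groups lay apart, with a change of 1.5 ± 0.20 (adjusted p = 6.71e-07). Nupr1 ran from 3.53 to 7.38 CPM (median 5.93) and rose by 1.09 ± 0.19 (adjusted p = 4.53e-05). Trib3 ran from 17.8 to 42.6 CPM (median 26.7) and rose by 0.94 ± 0.26 (adjusted p = 0.00558). Sesn2 ran from 12.5 to 29.6 CPM (median 18.6) and rose by 0.69 ± 0.18 (adjusted p = 0.00424). Atf5 was at 1034 to 1522 CPM (median 1287), and its change of 0.54 ± 0.13 (adjusted p = 0.0021) stayed under the fold limit. Atf4 was at 70.5 to 139 CPM (median 116), and its difference of 0.05 ± 0.10 (adjusted p = 0.758) did not pass the test.

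Diet within the cold also raised 4 genes, with 5.26% of all genes called. MetR_CE exceeded Ctrl_CE by 1.61 ± 0.20 (adjusted p = 2.77e-06) for Asns and by 1.57 ± 0.26 (adjusted p = 0.000147) for Trib3. The same comparison gave 1.15 ± 0.19 (adjusted p = 0.000116) for Nupr1 and 0.81 ± 0.13 (adjusted p = 0.000113) for Atf5. Asns, Trib3 and Atf5 lay apart between these 2 groups, whereas single libraries of Nupr1 overlapped, at 3.53 CPM in MetR_CE against 3.54 in Ctrl_CE. Eif4ebp1 had an adjusted p under 0.05 and a change just under the fold limit, at 0.57 ± 0.08 (adjusted p = 2.65e-05).

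Cold within MetR lowered 2 genes, with 5.18% of all genes called. Nupr1 was at 9.53 to 14.8 CPM (median 10.2) in MetR_RT and at 3.53 to 7.38 CPM (median 5.93) in MetR_CE, without overlap, a change of -0.99 ± 0.17 (adjusted p = 0.000107). Ppp1r15a was at 10.8 to 17.6 CPM (median 13.9) in MetR_RT and at 6.55 to 11.1 CPM (median 8.40) in MetR_CE, a change of -0.69 ± 0.14 (adjusted p = 0.000537), with overlapping libraries. Atf4 (-0.49 ± 0.10, adjusted p = 0.000935) and Eif4ebp1 (-0.44 ± 0.08, adjusted p = 0.000229) were lower with changes under the fold limit, and Eif4ebp1 lay apart. All 10 estimates were at or below 0, with a median of -0.49. The interaction, which asks whether the effect of diet differed between the temperatures, called 0 of the 10, where 1.06% of all genes were called. There were 3 at an unadjusted p under 0.05, DESeq2 called 2, and the lowest adjusted p was 0.0614, for Nupr1, with an estimate of -0.94 ± 0.27.

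The other genes of the pathway in liver were taken from lists written by function, and their counts stand beside the 6.91% of all genes called in MetR_RT and the 11.9% called in Ctrl_CE. None of the 15 kinases and subunits of the eIF2 machinery and none of the 12 partner or related bZIP factors was called in MetR_RT. Of the 28 other amino acid response targets of ATF4, 19 rose and 0 fell, with a median of 1.15. They were led by the serine synthesis enzyme Phgdh (5.18 ± 0.39), the cystine transporter Slc7a11 (4.35 ± 0.70), the lipoprotein receptor Vldlr (3.36 ± 0.21) and the mitochondrial folate enzyme Aldh1l2 (3.23 ± 0.23). Slc7a11 had only 4 counts over the 7 Ctrl_RT libraries, 5 of which were at 0, so that its fold change rests on few counts. Phgdh, Aldh1l2 and Vldlr were also scarce in Ctrl_RT, with 32, 59 and 93 counts over these libraries. Of 20 cytosolic tRNA synthetases, 3 rose, the glycyl (Gars, 1.03 ± 0.09), seryl (Sars, 0.71 ± 0.07) and isoleucyl (Iars, 0.63 ± 0.08) enzymes. Of 11 mitochondrial chaperones and proteases, the chaperone Hspa9 alone was called (0.88 ± 0.07), and of 19 other mTORC1 regulators Eif4ebp3 alone, a relative of Eif4ebp1, which fell (-1.31 ± 0.32). Of the 20 ER chaperones and other genes of the unfolded protein response, 7 fell and 0 rose, with a median of -0.47. They included Derl3 (-2.06 ± 0.52), Sdf2l1 (-1.38 ± 0.28), Creld2 (-1.18 ± 0.28) and Xbp1 (-0.71 ± 0.15).

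In Ctrl_CE liver, where none of the 10 was called, 9 of the 28 other ATF4 targets rose and 1 fell, with a median of 0.42. Vldlr (1.56 ± 0.22), the folate enzyme Mthfd1l (1.23 ± 0.30) and the aspartate aminotransferase Got1 (1.01 ± 0.16) were higher, and the secreted stress hormone Gdf15 was lower (-1.18 ± 0.37). Of the ER list, 13 of 20 fell, with a median of -0.80, led by Derl3 (-4.08 ± 0.61) and Sdf2l1 (-1.93 ± 0.29). With both stimuli, 20 of the 28 targets rose and 1 fell against Ctrl_RT, where 13.5% of all genes were called. Against Ctrl_CE, where 5.26% of all genes were called, 12 rose and 0 fell. The interaction called 1.06% of all genes. It called 10 of 20 ER genes, all positive, and 2 of the 28 targets, Vldlr (-1.79 ± 0.28) and the transporter subunit Slc3a2 (-0.78 ± 0.18).

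Some markers of other cells moved in the same liver groups. Against Ctrl_RT, 6.91% of all genes were called in MetR_RT, 11.9% in Ctrl_CE and 13.5% in MetR_CE. For MetR_CE, the share was 5.26% against Ctrl_CE and 5.18% against MetR_RT. A single marker called is too few to set against these shares. Of 5 endothelial markers, 1 rose in MetR_RT, 4 in Ctrl_CE and 5 in MetR_CE, and their sum ran from 64.7 to 86.9 CPM (median 71.04) in Ctrl_RT, 87.8 to 109 CPM (median 98.2) in MetR_RT, 113 to 193 CPM (median 171) in Ctrl_CE and 152 to 173 CPM (median 159.8) in MetR_CE. Of 6 macrophage markers, 1 fell in MetR_RT, 4 rose in Ctrl_CE and 6 fell in MetR_CE against Ctrl_CE, with sums of 139 to 203 CPM (median 168) in Ctrl_RT, 73.02 to 138 CPM (median 104) in MetR_RT, 133 to 570.2 CPM (median 254.8) in Ctrl_CE and 119 to 143 CPM (median 129) in MetR_CE. Of 8 immediate early genes, which also respond to handling and dissection, 2 rose in MetR_RT and 5 fell in MetR_CE against MetR_RT, with sums of 107 to 204 CPM (median 146) in Ctrl_RT, 146 to 341 CPM (median 219) in MetR_RT and 82.3 to 146 CPM (median 109) in MetR_CE. No marker of these 3 lists was at 0 in every library, and their part in the changes of the 10 genes was not tested.

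In iBAT, diet alone called 1 of the 10 genes and cold alone called 5. MetR_RT raised Atf5, where 2.5% of all genes were called. It ran from 267.1 to 485 CPM (median 350.3) in Ctrl_RT and from 396 to 816 CPM (median 546) in MetR_RT, with overlap, and rose by 0.73 ± 0.18 (adjusted p = 0.0103). Asns was the one gene whose groups lay apart, from 38.9 to 54.7 CPM (median 45.04) in Ctrl_RT and from 59.7 to 77.6 CPM (median 66.9) in MetR_RT, but its change of 0.57 ± 0.12 (adjusted p = 0.00291) was just under the fold limit, and DESeq2 called it. Nupr1 (-0.44 ± 0.12, adjusted p = 0.0226) and Eif4ebp1 (-0.21 ± 0.04, adjusted p = 0.00325) were lower than in Ctrl_RT with an adjusted p under 0.05 and a change under the fold limit, the opposite direction to liver. The median of the 10 was -0.16.

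Cold on the control diet raised 3 genes and lowered 2 in iBAT, where 14.7% of all genes were called. Both bZIP factors rose. Atf4 ran from 36.3 to 90.6 CPM (median 79.5) in Ctrl_RT and from 105 to 125 CPM (median 115) in Ctrl_CE, without overlap, and rose by 0.66 ± 0.14 (adjusted p = 0.000415). Atf5 ran from 393 to 1144 CPM (median 814) in Ctrl_CE and rose by 1.18 ± 0.18 (adjusted p = 7.45e-06), and its lowest cold library lay within the Ctrl_RT range. Asns, at 44.8 to 89.7 CPM (median 76.1), also overlapped and rose by 0.63 ± 0.12 (adjusted p = 0.000137). Nupr1 was at 10.8 to 15.9 CPM (median 12.7) in Ctrl_RT and 4.12 to 5.60 CPM (median 4.43) in Ctrl_CE, a change of -1.46 ± 0.13 (adjusted p = 4.58e-10). Eif4ebp1 was at 152 to 179 CPM (median 166) in Ctrl_RT and 97.8 to 105 CPM (median 101) in Ctrl_CE, a change of -0.72 ± 0.05 (adjusted p = 1.36e-12). The cold libraries of both genes lay below every Ctrl_RT library. Trib3, at 5.88 to 11.1 CPM (median 7.46) in Ctrl_RT and 4.999 to 6.97 CPM (median 5.97) in Ctrl_CE, had an estimate of -0.37 ± 0.12 (adjusted p = 0.0162), under the fold limit. Ddit3, Chac1, Sesn2 and Ppp1r15a did not pass the test, and their ranges overlapped.

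With both stimuli in iBAT, 2 genes rose and 2 fell against Ctrl_RT, where 14.7% of all genes were called. Atf4 ran from 114 to 157 CPM (median 132) (0.87 ± 0.14, adjusted p = 8.34e-06) and Atf5 from 818 to 1091 CPM (median 966) (1.41 ± 0.18, adjusted p = 3.53e-07). Nupr1 was at 4.25 to 7.57 CPM (median 5.23) (-1.27 ± 0.12, adjusted p = 2.97e-09) and Eif4ebp1 at 102 to 112 CPM (median 107) (-0.64 ± 0.04, adjusted p = 6.48e-12). All 4 lay apart from Ctrl_RT, as did Asns, at 60.2 to 80.2 CPM (median 64.6), whose change of 0.56 ± 0.12 (adjusted p = 0.000483) was under the fold limit.

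Diet within the cold (MetR_CE against Ctrl_CE) called 0 of the 10 in iBAT, where 1.64% of all genes were called. There were 2 at an unadjusted p under 0.05, DESeq2 called 0, and the one with an adjusted p under 0.05 was Trib3, at 0.50 ± 0.11 (adjusted p = 0.00874). Its MetR_CE libraries, at 7.30 to 10.4 CPM (median 8.36), all lay above those of Ctrl_CE. Cold within MetR called 2, where 8.53% of all genes were called. Atf5 rose by 0.68 ± 0.17 (adjusted p = 0.0027) and Nupr1 had a change of -0.83 ± 0.12 (adjusted p = 5.09e-06), and both lay apart, as did Atf4 (0.57 ± 0.13, adjusted p = 0.00111) and Eif4ebp1 (-0.43 ± 0.04, adjusted p = 1.45e-08) with changes under the fold limit. The interaction called 0 of the 10, where 0.372% of all genes were called, with 4 at an unadjusted p under 0.05. DESeq2 called 2. Eif4ebp1 had the lowest adjusted p, at 0.019, with an estimate of 0.30 ± 0.06 under the fold limit, and Asns had an estimate of -0.65 ± 0.17 (adjusted p = 0.0522). The median of Asns was 45 CPM in Ctrl_RT and higher in MetR_RT (66.9), Ctrl_CE (76.1) and MetR_CE (64.6) alike.

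The counts of the other lists in iBAT stand beside all-gene shares of 2.5% in MetR_RT and 14.7% in each cold group, and the difference between diet and cold was not tested for them. Of the 28 other ATF4 targets, 2 rose in MetR_RT, the mitochondrial folate enzyme Mthfd2 (2.13 ± 0.39) and Got1 (0.65 ± 0.12), with a median of 0.05. In Ctrl_CE, 14 rose and 2 fell, with a median of 0.52, led by Mthfd2 (3.59 ± 0.40), Gdf15 (3.55 ± 0.34), Slc7a11 (2.44 ± 0.68) and Got1 (2.32 ± 0.13). In MetR_CE, 11 rose and 3 fell against Ctrl_RT. Mthfd2 (-2.56 ± 0.51) and Got1 (-0.79 ± 0.17) had a negative interaction, where 0.372% of all genes were called. Of 20 ER chaperones, 6 rose in Ctrl_CE and 0 fell, among them Sdf2l1 (1.33 ± 0.17) and Manf (1.22 ± 0.10). Of the 12 bZIP factors, Atf3 (2.04 ± 0.25) and Atf6 (0.69 ± 0.06) rose. Of the other mTORC1 regulators, the inhibitor Deptor (1.19 ± 0.13) and Mtor itself (0.78 ± 0.07) rose, and Sesn1 (-0.67 ± 0.11) and Castor1 (-0.63 ± 0.12) fell. Markers of brown fat moved with the cold as well, with 4 of 6 higher and sums of 8728 to 11462 CPM (median 9575) in Ctrl_RT, 10195 to 12426 CPM (median 10714) in MetR_RT, 15616 to 18487 CPM (median 16351) in Ctrl_CE and 15843 to 19279 CPM (median 17859) in MetR_CE. Macrophage markers fell for 1 of 6 in Ctrl_CE and 5 of 6 in MetR_CE, with sums of 67.7 to 112 CPM (median 74.3) in Ctrl_RT, 43.5 to 110.02 CPM (median 60.9) in Ctrl_CE and 29.01 to 47.7 CPM (median 33.6) in MetR_CE. None of these markers was at 0 in every library, and their part in the result was not tested.

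**Figure D3:**
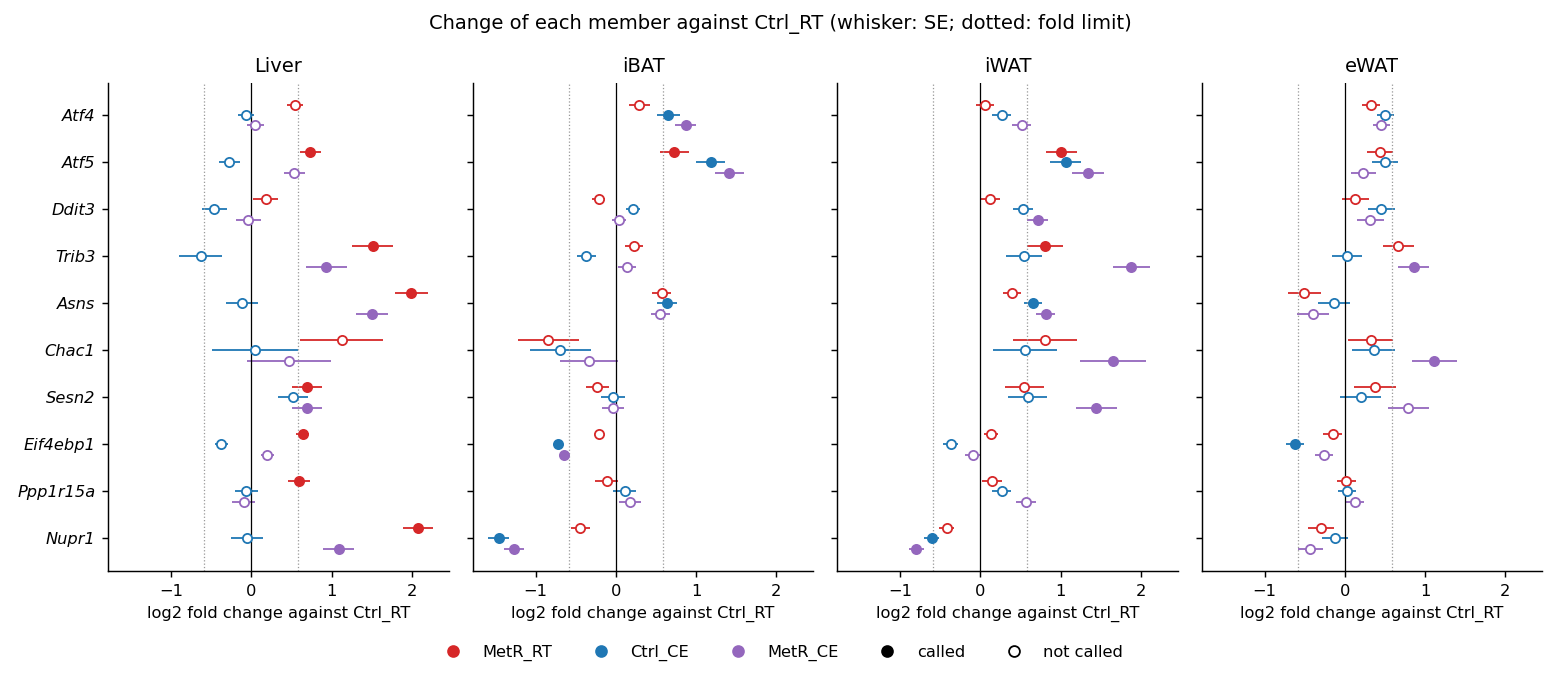
Log2 fold changes of the 10 genes against Ctrl_RT, with SE, for MetR_RT, Ctrl_CE and MetR_CE in the 4 tissues; filled points were called and dotted lines mark the fold limit. Nupr1 is at 2.08 in liver MetR_RT and at -1.46 in iBAT Ctrl_CE, and Asns has its largest value, 2.00, in liver MetR_RT. The 3 comparisons share the Ctrl_RT libraries.

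In iWAT, 2 of the 10 genes were called with diet alone, 3 with cold alone and 7 with both. MetR_RT raised 2 and lowered 0, where 11.6% of all genes were called. Atf5 ran from 142 to 284.8 CPM (median 186) in Ctrl_RT and from 232 to 611 CPM (median 317) in MetR_RT and rose by 1.01 ± 0.19 (adjusted p = 0.000368). Trib3 ran from 4.03 to 11.03 CPM (median 5.65) in Ctrl_RT and from 6.95 to 13.4 CPM (median 10.51) in MetR_RT and rose by 0.81 ± 0.23 (adjusted p = 0.00978). The groups overlapped for both genes. Asns (0.40 ± 0.11, adjusted p = 0.00955) and Nupr1 (-0.42 ± 0.09, adjusted p = 0.00148) had an adjusted p under 0.05 and changes under the fold limit, in opposite directions. Sesn2 and Chac1, with estimates of 0.55 ± 0.25 (adjusted p = 0.114) and 0.81 ± 0.40 (adjusted p = 0.156), did not pass the test.

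Cold on the control diet raised 2 genes and lowered 1 in iWAT, where 15.9% of all genes were called. Atf5, at 315 to 588 CPM (median 352), rose by 1.06 ± 0.19 (adjusted p = 0.000128). Asns, at 40.997 to 58.6 CPM (median 48) in Ctrl_RT and 64.01 to 109.6 CPM (median 72.99) in Ctrl_CE, rose by 0.66 ± 0.11 (adjusted p = 6.97e-05). Nupr1 was at 50.3 to 66.6 CPM (median 57.1) in Ctrl_RT and 30.7 to 46.01 CPM (median 37.8) in Ctrl_CE, a change of -0.61 ± 0.09 (adjusted p = 2.22e-05). These 3 genes lay apart from Ctrl_RT. DESeq2 called Sesn2 as well, and with apeglm shrinkage it called 2, without Nupr1. Ddit3, at 15.2 to 27.9 CPM (median 22.8) against 11.7 to 18.5 CPM (median 15.5) in Ctrl_RT, came close to the fold limit with 0.53 ± 0.13 (adjusted p = 0.00196). Eif4ebp1 was lower by a change under the limit, -0.37 ± 0.09 (adjusted p = 0.00331).

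MetR_CE raised 6 genes and lowered 1 against Ctrl_RT in iWAT, where 22.4% of all genes were called, and the median of the 10 was 0.76 against -0.08 for all genes. Trib3, at 12.02 to 34.8 CPM (median 19.9), had the largest change, 1.88 ± 0.23 (adjusted p = 7.31e-07). Chac1 ran from 1.41 to 12.9 CPM (median 4.53) in Ctrl_RT and from 8.18 to 23.3 CPM (median 17.9) in MetR_CE and rose by 1.66 ± 0.41 (adjusted p = 0.00211). Sesn2 ran from 11.7 to 38.4 CPM (median 19.6) in Ctrl_RT and from 36.6 to 81.9 CPM (median 63.96) in MetR_CE and rose by 1.44 ± 0.26 (adjusted p = 5.54e-05). Single libraries of Chac1 and Sesn2 overlapped, and neither gene was called with 1 stimulus alone. Atf5 was at 351 to 592 CPM (median 514) (1.34 ± 0.20, adjusted p = 5.52e-06), Asns at 81.3 to 101 CPM (median 88.8) (0.81 ± 0.11, adjusted p = 3.61e-06) and Ddit3 at 19.2 to 33.1 CPM (median 24.2) (0.71 ± 0.13, adjusted p = 8.35e-05). Nupr1 was the gene that fell, at 28.9 to 36.7 CPM (median 33.6) with a change of -0.80 ± 0.10 (adjusted p = 6.00e-07). Trib3, Atf5, Asns, Ddit3 and Nupr1 lay apart from Ctrl_RT. Atf4, at 119 to 188 CPM (median 151) against 83.01 to 153 CPM (median 105), and Ppp1r15a, at 16.2 to 27.8 CPM (median 20.7) against 10.4 to 19.5 CPM (median 14.1), had estimates of 0.51 ± 0.12 (adjusted p = 0.00105) and 0.57 ± 0.13 (adjusted p = 0.000722), both under the fold limit.

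In iWAT, MetR_CE was also compared with each stimulus alone. Trib3 was the one gene called against Ctrl_CE, where 2.27% of all genes were called. It ran from 4.45 to 11.1 CPM (median 9.58) in Ctrl_CE, below every MetR_CE library, and rose by 1.34 ± 0.23 (adjusted p = 0.00442). Against MetR_RT, 3 genes rose, where 1.88% of all genes were called. They were Trib3 (1.07 ± 0.23, adjusted p = 0.00732), Sesn2 (0.90 ± 0.25, adjusted p = 0.0366) and Ddit3 (0.60 ± 0.13, adjusted p = 0.00863), and Ddit3 alone lay apart. With apeglm shrinkage or filterByExpr, which keeps fewer low genes, Ddit3 was not called. Without MetR_RT replicate 6, the library with the high muscle markers, Sesn2 was no longer called (0.82, adjusted p = 0.062) while Chac1 was (1.34, adjusted p = 0.033). The interaction called 0 of the 10, where 1.65% of all genes were called, with 1 at an unadjusted p under 0.05, and DESeq2 called 1. That gene was Atf5, with an estimate of -0.73 ± 0.27 (adjusted p = 0.135).

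**Figure D4:**
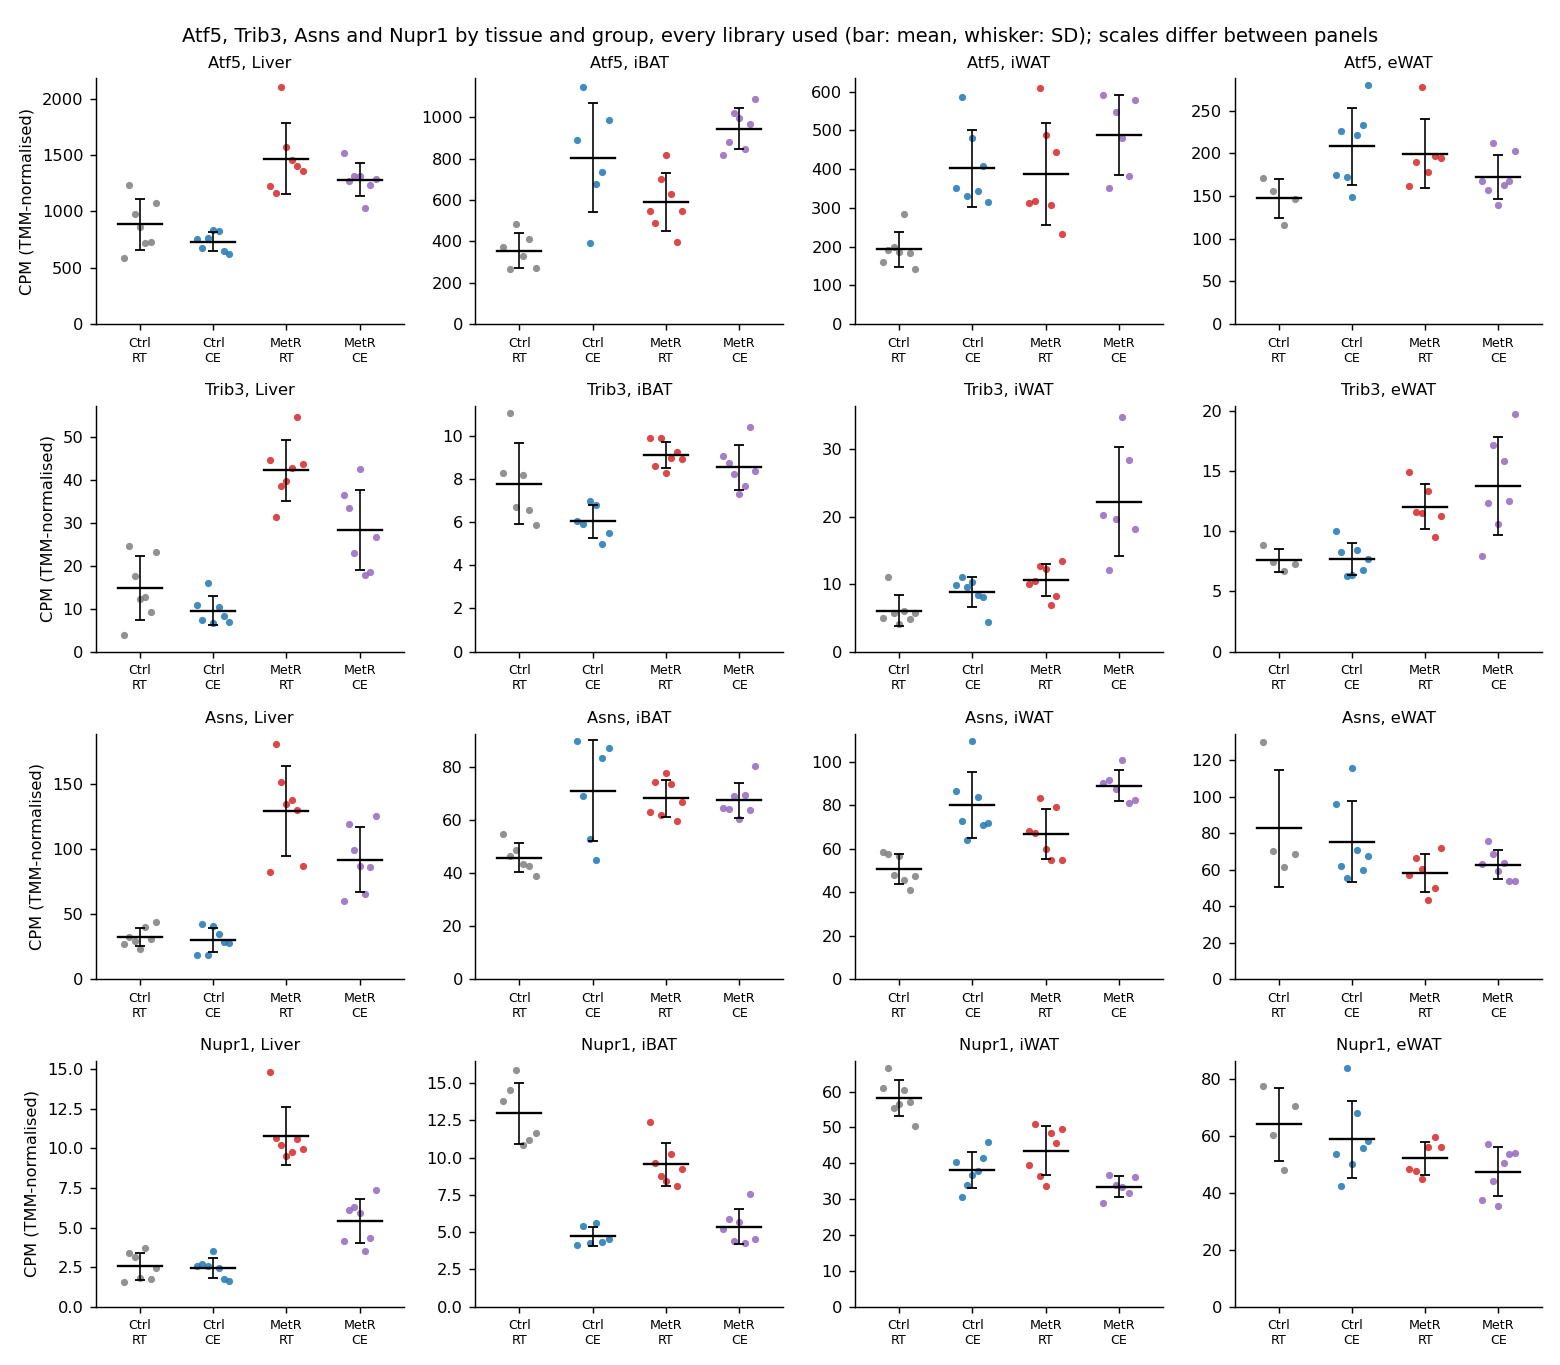
Levels of Atf5, Trib3, Asns and Nupr1 in the 4 tissues, in CPM per library (points) by group, with the mean and SD. Nupr1 rises to 9.53 CPM or more in liver MetR_RT and falls to 5.60 CPM or less in iBAT Ctrl_CE, and Trib3 lies between 12.02 and 34.8 CPM in iWAT MetR_CE.

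Other ATF4 targets in iWAT went in both directions, and the share of all genes called was 11.6% in MetR_RT, 15.9% in Ctrl_CE and 22.4% in MetR_CE. In MetR_RT, 4 of 28 rose and 7 fell, with a median of -0.01, among them the hormone Fgf21 (1.52 ± 0.38), Slc7a11 (-3.01 ± 0.80), Gdf15 (-2.20 ± 0.60) and the proline enzyme Pycr1 (-1.48 ± 0.25). In Ctrl_CE, 4 rose and 5 fell, with Fgf21 at 2.84 ± 0.37, Got1 at 1.62 ± 0.33, Pycr1 at -2.16 ± 0.26 and Aldh1l2 at -1.96 ± 0.43. In MetR_CE, 8 rose and 3 fell against Ctrl_RT, with Fgf21 at 4.03 ± 0.38 and Got1 at 2.42 ± 0.35. The interaction, where 1.65% of all genes were called, called 4 of the 28, all positive. Gdf15 (3.82 ± 0.82) and the amino acid transporter Slc7a5 (1.57 ± 0.39) were largest. Of the cytosolic tRNA synthetases, 4 of 20 rose in MetR_CE, a share near the 22.4% of all genes, namely Gars (0.95 ± 0.11), Wars (0.80 ± 0.11), Sars (0.60 ± 0.07) and Eprs (0.59 ± 0.09). Of 11 mitochondrial chaperones and proteases, 2 rose in MetR_RT, 1 in Ctrl_CE and 5 in MetR_CE, with Hspa9 called in all 3 (0.97 ± 0.16, 1.11 ± 0.16 and 1.43 ± 0.17). ER chaperones fell for 6, 7 and 6 of 20 in these groups, with 1 that rose in MetR_CE, and Sdf2l1 fell in all 3 (-1.21 ± 0.21, -1.40 ± 0.21 and -1.86 ± 0.23).

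The cell markers of iWAT moved in the same groups, where 11.6% (MetR_RT), 15.9% (Ctrl_CE) and 22.4% (MetR_CE) of all genes were called. All 6 brown or beige adipocyte markers rose in MetR_RT, Ctrl_CE and MetR_CE, with sums of 89.1 to 852 CPM (median 319) in Ctrl_RT, 462 to 5078 CPM (median 1852) in MetR_RT, 869 to 6047 CPM (median 3480) in Ctrl_CE and 3324 to 7781 CPM (median 5128) in MetR_CE. All 6 macrophage markers fell in each, with sums of 1290 to 2033 CPM (median 1393) in Ctrl_RT, 228 to 945 CPM (median 407) in MetR_RT, 264.8 to 1440 CPM (median 579.6) in Ctrl_CE and 174 to 431 CPM (median 234) in MetR_CE. None was at 0 in every library, and the part of these shifts in the changes of the 10 genes was not tested.

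In eWAT, with 4 libraries in Ctrl_RT, few of the 10 genes were called. MetR_RT called 0, where 0.115% of all genes were called, with 4 at an unadjusted p under 0.05, and DESeq2 called 1. Trib3 came nearest by its levels. It was at 6.68, 7.30, 7.44 and 8.87 CPM in the 4 Ctrl_RT libraries and from 9.56 to 14.9 CPM (median 11.6) in MetR_RT, without overlap, with an estimate of 0.67 ± 0.19 (adjusted p = 0.215). Asns was at 61.2, 68.5, 70.3 and 130.1 CPM in Ctrl_RT, where 1 library stood far above the others, and from 43.1 to 71.9 CPM (median 58.7) in MetR_RT, with an estimate of -0.51 ± 0.20 (adjusted p = 0.419).

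Cold on the control diet called 1 gene in eWAT, where 2.42% of all genes were called. Eif4ebp1 was at 265.04, 296.1, 368 and 371 CPM in Ctrl_RT and from 184 to 271.8 CPM (median 197) in Ctrl_CE, and it had a change of -0.62 ± 0.11 (adjusted p = 0.00247). The highest cold library overlapped Ctrl_RT, and with all 7 Ctrl_RT libraries the change was -0.29 (adjusted p = 0.26) and not called. It was also not called without Ctrl_RT replicate 1, Ctrl_RT replicate 7 or Ctrl_CE replicate 7. Atf4, at 77.2, 92.9, 93.1 and 98.8 CPM in Ctrl_RT and from 95.6 to 153 CPM (median 128) in Ctrl_CE, had an estimate of 0.51 ± 0.11 (adjusted p = 0.00852), under the fold limit.

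Both stimuli raised 2 genes in eWAT, where 1.3% of all genes were called. Trib3, from 7.91 to 19.7 CPM (median 12.5) in MetR_CE, rose by 0.86 ± 0.19 (adjusted p = 0.0142). Chac1, at 6.28, 8.09, 9.19 and 12.6 CPM in Ctrl_RT and from 10.7 to 29.2 CPM (median 19.6) in MetR_CE, rose by 1.11 ± 0.28 (adjusted p = 0.0306). Both overlapped between the groups, while Atf4, from 111 to 146 CPM (median 119.8) in MetR_CE, lay apart with a change under the fold limit (0.45 ± 0.11, adjusted p = 0.022). The count of 2 rested on single libraries, and it was 0 without Ctrl_RT replicate 3 and 1 without Ctrl_RT replicate 6 or 7 or MetR_CE replicate 2, 5 or 7. Against Ctrl_CE, where 4.35% of all genes were called, the same 2 genes rose, Trib3 by 0.83 ± 0.16 (adjusted p = 0.00158) and Chac1 by 0.76 ± 0.23 (adjusted p = 0.0329). This count was 1 without Ctrl_CE replicate 1, 2, 6 or 7 or MetR_CE replicate 2, 5, 6 or 7.

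Some cell markers of eWAT moved in these groups as well. Against Ctrl_RT, 0.115% of all genes were called in MetR_RT, 2.42% in Ctrl_CE and 1.3% in MetR_CE. For MetR_CE against Ctrl_CE, the share was 4.35%. A single marker called is too few to set against these shares. Skeletal muscle markers summed to 22.1 to 425 CPM (median 44.99) in Ctrl_RT, 8.44 to 15.98 CPM (median 11.8) in MetR_RT, 7.50 to 34.1 CPM (median 12.6) in Ctrl_CE and 7.14 to 11.4 CPM (median 8.13) in MetR_CE, so that both MetR groups lay below Ctrl_RT, and 1 of the 5 that passed the filter, Acta1, fell in each of the 3 groups. Adipocyte markers summed to 19472 to 29066 CPM (median 25588) in Ctrl_RT, 17493 to 21968 CPM (median 18660) in MetR_RT, 15174 to 24599 CPM (median 18313) in Ctrl_CE and 18674 to 29387 CPM (median 22555) in MetR_CE, and 1 of 5, Adipoq, fell in Ctrl_CE. Mesothelium markers, none of 5 called, had a median sum of 161 CPM in Ctrl_RT, and the medians of Ctrl_CE (89.3 CPM), MetR_CE (80.2 CPM) and MetR_RT (150.3 CPM) were lower, with ranges that overlapped that of Ctrl_RT. Of 6 brown or beige markers, 2 rose in Ctrl_CE and 4 fell in MetR_CE against Ctrl_CE, and Adgre1, 1 of 6 macrophage markers, fell in the latter. None of these markers was at 0 in every library, and their part in the results was not tested.

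Neither remaining comparison of eWAT called a gene of the 10. Against MetR_RT, 0.112% of all genes were called, and the 10 gave 0, with 1 at an unadjusted p under 0.05 and 1 by DESeq2. For the interaction, 2.3% of all genes were called, and the 10 gave 0, with 3 at an unadjusted p under 0.05 and 1 by DESeq2. Atf5 had an interaction estimate of -0.71 ± 0.21 (adjusted p = 0.0677) and Eif4ebp1 of 0.51 ± 0.15 (adjusted p = 0.0626). Ppp1r15a, Ddit3, Sesn2 and Nupr1 were called in no comparison of eWAT. Nupr1, at 48.2, 60.2, 70.7 and 77.4 CPM in Ctrl_RT and from 35.5 to 57.0 CPM (median 50.4) in MetR_CE, had an estimate of -0.43 ± 0.16 (adjusted p = 0.157). No gene of the 7 pathway lists was called in MetR_RT. Only 0.115% of all genes were called there, so that this does not set the lists apart from other genes. In Ctrl_CE, where 2.42% of all genes were called, the serine enzyme Psph rose (1.01 ± 0.24) and Eif4ebp3 fell (-1.11 ± 0.31). In MetR_CE against Ctrl_RT, 1.3% of all genes were called. The arginine sensor Castor1 (1.11 ± 0.23) and the secreted glycoprotein Stc2 (0.67 ± 0.18) rose there. The proline enzyme Aldh18a1 (-0.68 ± 0.14) and the ER chaperone Calr (-0.62 ± 0.15) fell.

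Differences between tissues were tested directly, in joint fits over the libraries of both tissues. For diet at room temperature, the change was larger in liver than in iBAT for 6 of the 10 genes, where 5.42% of all genes differed. Nupr1 led with a difference of 2.55 ± 0.22, adjusted p = 2.90e-12, followed by Asns with 1.45 ± 0.24, adjusted p = 2.23e-05 and Trib3 with 1.31 ± 0.30, adjusted p = 0.00212. Sesn2 (0.95 ± 0.24, adjusted p = 0.00541), Eif4ebp1 (0.88 ± 0.09, adjusted p = 1.86e-09) and Ppp1r15a (0.73 ± 0.20, adjusted p = 0.0103) also differed. Atf5, called in both tissues, had a difference of 0.03 ± 0.23, adjusted p = 0.962 that did not pass the test. Against iWAT, 2 genes differed, where 11.6% of all genes did, Nupr1 by 2.51 ± 0.20, adjusted p = 3.24e-13 and Asns by 1.61 ± 0.24, adjusted p = 1.66e-06. Against eWAT, 4 differed, where 2.88% of all genes did. They were Asns (2.53 ± 0.30, adjusted p = 7.51e-08), Nupr1 (2.40 ± 0.25, adjusted p = 1.51e-09), Eif4ebp1 (0.82 ± 0.14, adjusted p = 0.000107) and Ppp1r15a (0.60 ± 0.19, adjusted p = 0.0494). With all eWAT libraries, Asns (2.44) and Nupr1 (2.26) were still called, while Eif4ebp1 (0.59, adjusted p = 0.065) and Ppp1r15a (0.58, adjusted p = 0.034) were not. In liver, the response of Nupr1 and Asns to diet was thus larger than in each of the 3 fat depots. These comparisons share the liver libraries.

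For cold on the control diet, iBAT differed from iWAT in 2 genes, where 13.1% of all genes differed. Trib3 (-0.92 ± 0.27, adjusted p = 0.0105) and Nupr1 (-0.86 ± 0.16, adjusted p = 6.74e-05) had the lower change in iBAT. Against liver, iBAT differed in 5 genes, where 17% of all genes differed. Atf5 (1.48 ± 0.24, adjusted p = 1.70e-06), Asns (0.77 ± 0.25, adjusted p = 0.0139), Atf4 (0.75 ± 0.18, adjusted p = 0.000705) and Ddit3 (0.70 ± 0.18, adjusted p = 0.00246) had the higher change in iBAT, and Nupr1 the lower (-1.38 ± 0.24, adjusted p = 9.93e-06).

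**Figure D5:**
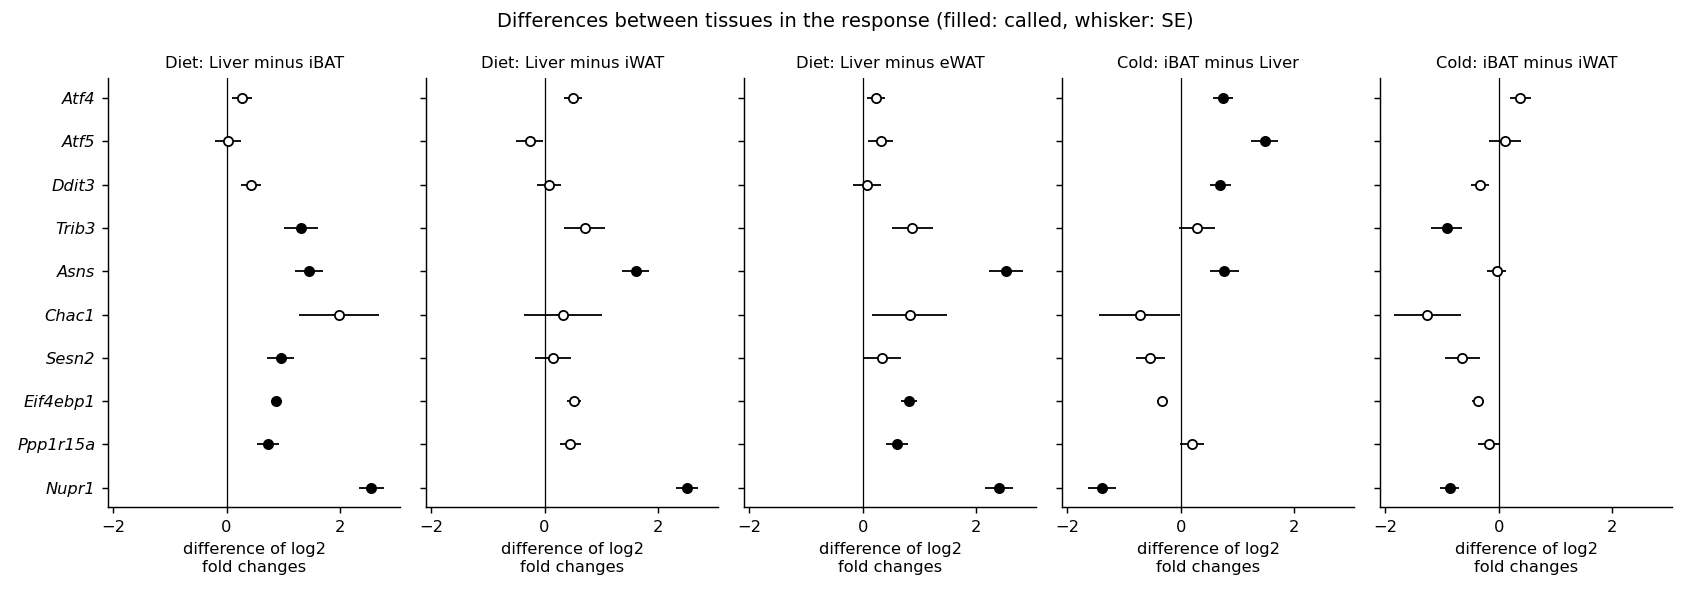
Differences between tissues in the log2 fold change of each gene, first tissue minus second, with SE, for diet (liver against each fat depot) and cold (iBAT against iWAT and liver); filled points passed the test and the fold limit. Nupr1 is at 2.55, 2.51 and 2.40 for diet and at -0.86 and -1.38 for cold.

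As a description, the genes most alike to the 10 were those whose log2 CPM had the highest Pearson correlation with the mean of the 10 scaled genes over the libraries of a tissue. The points share diet and temperature, so that any gene that moved with the groups can rank high. In liver (28 libraries) they were Sars (0.904), Kin (0.899), Cyb5a (0.896), Abca8b (0.877) and Nono (0.873). In iBAT (26 libraries) they were Dyrk1a (0.788), Mtdh (0.753), Gem (0.711), Zfp160 (0.693) and Rbm39 (0.679). In iWAT (27 libraries) they were Sars (0.911), Dnajb12 (0.905), Acot2 (0.892), Rapgef1 (0.890) and Pacsin2 (0.889). In eWAT (24 libraries) they were Map2k3 (0.842), Cebpa (0.836), Zfyve27 (0.8294), Ago2 (0.809) and Plcb4 (0.809). The tRNA synthetase Sars was the one gene named in more than 1 tissue.

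Within groups, once the group means were removed, most pairs of the 10 genes had a correlation under 0.5. Over the 45 pairs, the median correlation was 0.16 in liver and 0.06 in each fat depot, and 5 pairs exceeded 0.5 in eWAT, 3 each in liver and iBAT, and 2 in iWAT. The highest pair was Chac1 with Sesn2 in liver (0.69), Atf4 with Ppp1r15a in iBAT (0.80), Atf4 with Trib3 in iWAT (0.59) and Atf4 with Ddit3 in eWAT (0.81). The reads of a library are shared by all its genes, and these values are given without a test.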

How the data were processed

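RNA of liver, iBAT, iWAT and eWAT was sequenced after polyA selection. As deposited, the 3 tables hold raw whole-number counts by Ensembl identifier, with no normalization. Their text names STAR 2.7.9a on mm10 with featureCounts 2.0.3, and also Salmon 1.9.0, and which of them made the tables is not given in the sources used here. Symbols came from GENCODE M21 for 51948 identifiers, of which 35 carried the same version number, so that no coordinates of table genes are given. All columns were mapped to mice by their labels, and groups were taken from titles. The 5 libraries that the study left out were found by comparing mean normalized counts in its source data.

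Genes with at least 10 counts in a tissue were fitted with edgeR 4.0.16 in R 4.3.3 (TMM factors, quasi-likelihood, group means over all 4 groups), as in the study's model of diet, temperature and their interaction. P-values were adjusted over every gene tested in a contrast (Benjamini-Hochberg). The SE is the log2 fold change divided by the square root of F. Replicates are separate mice, and the tissues of a mouse enter the joint fits without a block, with limma 3.58.1 (voom, mouse as block) as the alternative. Results were also computed with DESeq2 1.42.0, alone or shrunken by apeglm 1.24.0, with RLE factors, other filters, all libraries, only the groups compared, the treatment tag, no fold limit, the replicate number as a block, and each eWAT library left out. The scripts were tested on simulated data. No 2 libraries of a group agreed within sampling noise (smallest chi-square per degree of freedom 6.36).

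The 10 genes and all lists were chosen with earlier results of these data known. From a list, up to 4 called genes with the largest fold change were named per comparison, and the 5 genes of highest correlation per tissue. Log2 CPM for correlations used a prior count of 2 and genes with a mean of at least 1 CPM. Figures were drawn with matplotlib 3.10.9.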

Additional observations from a re-analysis of the deposited data

Results flagged for a closer look

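In 160 groups of a gene, a tissue and a condition, 14 held a library that lay far from the others (Dixon's test at 95%). For normally distributed values, chance alone gives about 1 in 20. The test used CPM without a log, whose distribution was not checked, so that this rate may not hold here. In liver, Chac1 was at 35.7 CPM in MetR_RT replicate 6, Chac1 at 26.02 and Sesn2 at 29.6 CPM in MetR_CE replicate 4, Nupr1 at 14.8 CPM in MetR_RT replicate 1, and Eif4ebp1 was low, at 51.8 CPM, in MetR_CE replicate 1. In iBAT, Ddit3 was at 18.2 CPM in Ctrl_RT replicate 5. In iWAT, Ctrl_RT replicate 5 had high Atf4 (153 CPM) and Atf5 (284.8 CPM), Ctrl_RT replicate 2 had high Trib3 (11.03 CPM) and Chac1 (12.9 CPM), and Chac1 was high in Ctrl_CE replicate 4 (15.1 CPM) and MetR_RT replicate 6 (25.7 CPM). In eWAT, Atf5 was at 278.2 CPM in MetR_RT replicate 3 and Asns at 130.1 CPM in Ctrl_RT replicate 1. Chac1 thus had 5 of the 14.

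Of 50 tests of a difference between tissues, 19 passed with edgeR's joint fit. For diet, liver exceeded iBAT by a log2 difference of 1.31 for Trib3, 1.45 for Asns, 0.95 for Sesn2, 0.88 for Eif4ebp1, 0.73 for Ppp1r15a and 2.55 for Nupr1. It exceeded iWAT by 1.61 for Asns and 2.51 for Nupr1, and eWAT by 2.53 for Asns, 0.82 for Eif4ebp1, 0.60 for Ppp1r15a and 2.40 for Nupr1. For cold, the difference of iBAT from iWAT was -0.92 for Trib3 and -0.86 for Nupr1. The difference of iBAT from liver was 0.75 for Atf4, 1.48 for Atf5, 0.70 for Ddit3, 0.77 for Asns and -1.38 for Nupr1.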

How the results depend on the processing

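No value of a gene changed sign where it was called. Of the counts of called genes, 335 stayed within 1.5 times the reported count and 62 did not, and most of the latter were counts of 0 to 4. In the interaction, DESeq2 called 2 in liver (Ppp1r15a and Nupr1), 2 in iBAT (Asns and Nupr1), 1 in iWAT and 1 in eWAT (Atf5 in both), and apeglm shrinkage, filterByExpr or both called 1 in liver and 1 in eWAT. The iBAT interaction gave 1 with all libraries, RLE factors, filterByExpr or no filter beyond 1 count (Asns in each) and 1 with no fold limit (Eif4ebp1). For diet in iBAT, the count was 2 with DESeq2, RLE factors, filterByExpr, the treatment tag or without the 3 libraries whose tag differed. For MetR_CE against Ctrl_CE in iWAT it was 2 with DESeq2, apeglm or filterByExpr and 3 with only the groups compared. In eWAT, DESeq2 called 1 for diet, DESeq2 and apeglm each called 1 for MetR_CE against MetR_RT, apeglm called 0 for cold, apeglm and all libraries gave 1 for MetR_CE against Ctrl_CE, and only the groups compared gave 0 for MetR_CE against Ctrl_RT. With all eWAT libraries, 2 genes differed between liver and eWAT. Without the fold limit, counts rose in each tissue, as did those of all genes, given in brackets. Rises beyond 1.5 times follow, apart from that of the iBAT interaction given above, and smaller rises are not listed. In liver they rose to 3 for cold (6388 of 22143) and 4 for MetR_CE against MetR_RT (3987). In iBAT they rose to 4 for diet (1626 of 23915), 5 for MetR_CE against MetR_RT (6093) and 1 for MetR_CE against Ctrl_CE (1143). In iWAT they rose to 4 for diet (5932 of 26428), 5 for cold (8145) and 7 for MetR_CE against MetR_RT (1431). In eWAT the count rose to 2 for cold (1463 of 27786). The cause of these shifts was not tested. For the other settings, the share of all genes called is not given, so that their counts stand without a background.

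Leaving out each eWAT library in turn gave 0 to 1 for cold, 0 to 2 for MetR_CE against Ctrl_RT, 1 to 3 for MetR_CE against Ctrl_CE and 0 to 1 for the interaction. Leaving out a library that stood apart in liver gave 6 to 7 for diet. By their mouse labels, same-numbered libraries of different groups came from different mice, so that the replicate number paired no animals. Their deviations correlated above 0.1 for 15 of 30 eWAT pairs, 18 of 39 iWAT pairs, 16 of 36 iBAT pairs and 4 of 42 liver pairs. Pairs with other numbers were not counted in this way, so that these counts stand without a comparison. The median correlation was 0.109 (eWAT) and 0.083 (iWAT), against -0.021 and -0.003 for pairs with other numbers. It was -0.005 (iBAT) and -0.003 (liver), against -0.018 and 0.006. Whether the higher medians in the white depots exceed chance was not tested, and neither was a cause. With the replicate number as a block, the count was 1 for MetR_CE against Ctrl_RT in eWAT, 1 for the eWAT interaction and 2 for MetR_CE against Ctrl_CE in iWAT, and other counts stayed within 1.5 times. The mouse as a block in the joint fits changed no call.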
